A study of Mus musculus with 7 samples.

Results

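Imprinted genes are expressed mainly from the allele of 1 parent. The allele is marked by DNA methylation that is laid down differently in the oocyte and in sperm. In mice the maternal marks are placed while the oocyte grows, by the methyltransferase DNMT3A with its cofactor DNMT3L, on control regions that are often promoters of genes expressed from the paternal allele in the offspring. Both copies of an oocyte's genome take the maternal mark, and gene counts from an inbred strain do not tell alleles apart. "Paternally expressed" and "maternally expressed" therefore name here the allele used in other tissues of the mouse, not an allele measured in these oocytes.

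A list of 40 imprinted mouse genes was looked up by gene symbol among the 26019 gene rows of the deposited table, and 36 had a row. These were 21 of 24 paternally expressed and 15 of 16 maternally expressed genes. Smoc1 was counted as maternally expressed, although it was also listed with Sfmbt2, Gab1 and Slc38a4, which were counted as paternally expressed. Its class is thus in doubt, and the counts and levels by class were not redone. Smoc1 was too low to be tested, so counts of tested and called genes do not depend on its class. H19, Snurf, Mkrn3 and Rtl1 had no row under those symbols and were not analysed here. Snurf lies inside Snrpn in the annotation.

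RNA was measured by Smart-Seq2, which copies and amplifies polyadenylated RNA of a few cells, in oocytes taken from secondary follicles of C57BL/6J mice, with 5 oocytes pooled in each library. The groups were KO (n = 3 libraries), named as Mfn2-/- by the series title and design text, and WT (n = 4). Mfn2 encodes mitofusin 2, a protein with which mitochondria fuse with each other. The genotype label and treatment protocol name Mfn1 in its place, the protocol gives 8 weeks where the age label reads P1, and the design text counts 3 mice per group. Neither the deleted exons nor a Cre driver are named in the sources used here. The labels tie no library to a mouse, so a p-value here measures the spread between libraries, which may be technical. Mfn2 had 7.27, 4.55 and 7.66 normalised counts in KO 1 to KO 3, against 35.3, 35.1, 15.0 and 29.2 in WT 1 to WT 4, and fell in KO (log2 fold change -1.94, standard error, SE, 0.40, limma adjusted p = 0.00571). Mfn1 had 335, 347 and 308 in KO and 287, 271, 340 and 258 in WT, with a log2 fold change of 0.20 (limma adjusted p = 0.499).

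The libraries held 6676076 to 8343915 reads. The 14 oocyte markers with a row summed to 198021 to 311443 normalised counts in KO and 165888 to 222060 in WT. The 20 granulosa markers, of the cells that surround the oocyte, summed to 5194, 6619 and 6233 in KO, against 5319, 4988, 4878 and 5996 in WT (2-sided exact permutation p = 0.2 over 35 splits, the smallest possible being 0.0286). Serpine2 alone had 3265 to 4275 in KO and 2619 to 3740 in WT. Bmpr1b had 721 to 853 in KO and 700 to 795 in WT, and Esr2 is given below. The sum thus mostly follows these genes, which were high in every library. Amh, Foxl2, Inhbb, Fst and Krt18 were no higher than 1.08 in any WT library. Averaged gene by gene on the log2 scale, the markers were 1.18 higher in KO (exact permutation p = 0.0286). For 13 of the 20, KO 2 and KO 3 held the highest values of the 7 libraries, among them Inha, the inhibin alpha subunit, with 54.5, 395 and 338 in KO and 66.7, 18.1, 23.4 and 11.9 in WT. Of the 17 markers tested, 14 had a fold change above 0 and 3 below, with a median log2 fold change of 1.48. By limma, 1 of the 17 was called higher in KO (Nr0b1) and 2 lower, against 6.71% of all genes called. Cyp19a1, the aromatase, had 98.1, 50 and 86.4 in KO and 151, 218, 171 and 178 in WT (log2 fold change -1.23, limma adjusted p = 0.00251). Esr2, an estrogen receptor, had 718, 596 and 853 in KO and 992, 874, 1066 and 1119 in WT (-0.50, limma adjusted p = 0.0446). The 9 theca and stroma markers summed to 62.7, 238 and 368 in KO and to 38.3 to 68.6 in WT, of which Hsd3b1 made up 23.6, 195 and 327 in KO and 6.54 to 44.8 in WT. The 8 endothelial and blood cell markers summed to 347 to 501 in KO and 749 to 773 in WT. C1qb, a complement subunit, made up 173 to 248 of this in KO and 513 to 555 in WT. Of the 5 tested, 4 had a fold change below 0 and 1 above, and only C1qb was called. Pecam1 had 128 to 184 in KO and 132 to 191 in WT. C1qa and Lyz2 were 0 in every library but WT 3, with 3.74 and 1.87. In pooled cells, fewer cells of a type and less RNA per cell cannot be told apart.

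The promoter sequences of 4 genes are shown. Mest, Snrpn and Plagl1 are shown because they are paternally expressed and their control regions are textbook cases of the marks that oocytes set. Meg3, whose cluster is marked in sperm, is shown because it was the gene called between the groups. The letters are RefSeq windows of the GRCm38.p6 build, 250 bases before to 50 after an annotated start, read 5′ to 3′ on the gene's strand. For each gene the window with the most matches to TGCCGC is shown. Capitals mark TGCCGC, the core that the imprint-keeping protein ZFP57 recognises, or its reverse complement GCGGCA.
Mest, chr6:30737800-30738099, + strand: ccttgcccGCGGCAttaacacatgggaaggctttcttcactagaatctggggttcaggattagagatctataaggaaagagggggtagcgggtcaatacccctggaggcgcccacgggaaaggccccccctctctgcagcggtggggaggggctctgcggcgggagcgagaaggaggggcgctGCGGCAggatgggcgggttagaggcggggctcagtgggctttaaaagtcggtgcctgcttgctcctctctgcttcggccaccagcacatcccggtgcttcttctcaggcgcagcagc
Snrpn, chr7:60005150-60005449, - strand: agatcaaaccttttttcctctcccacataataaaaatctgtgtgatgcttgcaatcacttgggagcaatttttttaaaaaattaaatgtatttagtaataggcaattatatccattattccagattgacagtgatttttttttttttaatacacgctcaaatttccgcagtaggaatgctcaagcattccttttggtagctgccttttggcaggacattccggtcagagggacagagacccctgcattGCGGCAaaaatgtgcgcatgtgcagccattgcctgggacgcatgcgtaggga
Plagl1, chr10:13090582-13090881, + strand: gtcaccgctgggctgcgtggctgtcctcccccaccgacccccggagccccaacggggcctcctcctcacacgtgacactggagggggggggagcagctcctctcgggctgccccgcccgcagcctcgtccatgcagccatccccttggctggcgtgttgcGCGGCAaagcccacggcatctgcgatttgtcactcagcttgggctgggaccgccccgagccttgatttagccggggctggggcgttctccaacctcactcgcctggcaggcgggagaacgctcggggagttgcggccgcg
Meg3, chr12:109540746-109541045, + strand: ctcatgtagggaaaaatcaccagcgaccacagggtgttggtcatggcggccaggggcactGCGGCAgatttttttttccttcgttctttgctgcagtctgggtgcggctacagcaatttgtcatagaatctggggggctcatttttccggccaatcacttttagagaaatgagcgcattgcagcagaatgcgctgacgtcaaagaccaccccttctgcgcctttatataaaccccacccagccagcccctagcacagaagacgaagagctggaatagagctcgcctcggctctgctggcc

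The Plagl1 window held 26 CpG dinucleotides, the Mest window 17, the Meg3 window 13 and the Snrpn window 7. Windows on chromosome 18, where Impact lies, were not counted for the imprinted genes but were kept among all windows. Of the 36 genes with a row, 29 had at least 1 counted window, some with several starts. The motif was present, on either strand, in 13 of their 48 windows (27.1%), some of which overlap, against 3813 of all 32851 windows of this length (11.6%). By gene this was 7 of 18 paternally expressed and 5 of 11 maternally expressed genes. No share by gene was counted over all genes, so these cannot be set against the share of windows. The median window of the imprinted genes held 16 CpGs, against 7 over all windows. The motif itself holds a CpG, and the part of CpG content in its share was not tested. A match describes these letters only. Counts were given per whole gene, so the start used in these oocytes is not known.

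The imprinted genes spanned a wide range of abundance. Of the 36, 28 had a read in each of the 7 libraries, which included 14 of 21 paternally expressed and 14 of 15 maternally expressed genes. A mean of at least 20 normalised counts was reached by 20 genes, 8 paternally and 12 maternally expressed. Levels were compared between genes per kilobase of annotated exon, on which scale the median gene row stood at 4.65. This could be done for 33 genes, since the table's gene ends differed from the annotation for Impact, Kcnq1ot1 and Zrsr1. Above that median stood 8 of 18 paternally expressed and 11 of 15 maternally expressed genes. The median paternally expressed gene lay at percentile 37.1 of all gene rows, and the median maternally expressed gene at percentile 70.4. Smoc1, counted with the maternally expressed genes, lay at percentile 20.2.

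The highest level per kilobase was that of Commd1, a regulator of copper handling and NF-κB whose intron holds the imprinted Zrsr1. It stood at 320 ± 30.5 normalised counts per kilobase in KO and 402 ± 25.4 in WT (SD, n = 3 and 4, as in the means that follow). Gnas, which encodes the stimulatory G protein alpha subunit and several imprinted alternative products, stood at 220 ± 101 in KO and 158 ± 26.6 in WT. Mest, a hydrolase-like protein of the endoplasmic reticulum, stood at 192 ± 38.0 in KO and 244 ± 27.5 in WT, and led the paternally expressed genes. In WT every Mest value lay above every Gnas value and below every Commd1 value, while in KO the Gnas value of KO 2 lay above all those of Mest and within those of Commd1. Among long genes, Igf2r, the receptor that clears insulin-like growth factor 2, stood at 7.37 per kilobase in KO and 7.82 in WT, and Airn, the antisense RNA that silences it in other tissues, at 5.09 in KO and 5.63 in WT.

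**Figure D1:**
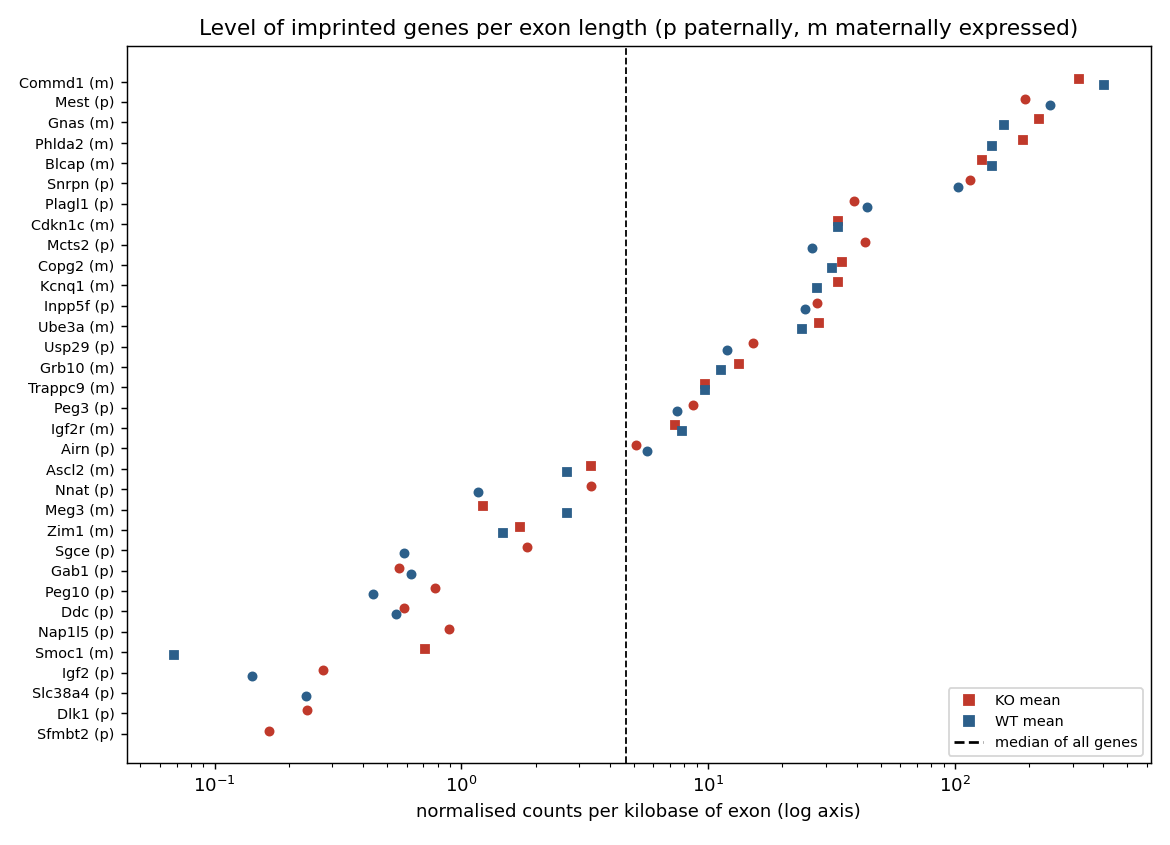
Mean level of each imprinted gene per kilobase of exon (log axis) in KO (red) and WT (blue); squares are maternally and circles paternally expressed genes, and the dashed line is the median gene row at 4.65. Commd1, Gnas, Mest and Phlda2 lie at the top, and group means of 0 are not drawn.

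Between the groups, 1 of the 31 imprinted genes that passed the filter on low values was called, meaning a Benjamini-Hochberg adjusted p under 0.05 in the limma fit across all genes. It was Meg3, which was lower in KO. Over all 19227 genes tested, 6.71% were called, 594 of them higher in KO (3.09%) and 697 lower (3.63%), so 1 of 31 is no larger a share than that of all genes. None of the 17 tested paternally expressed genes was called at adjusted p 0.05, though 3 of them had an unadjusted limma p under 0.05. By DESeq2 on the recovered reads the counts were also 1 lower and 0 higher, against 7.58% of all genes called. By edgeR 0 were called in either direction, against 6.53% of all genes. An unadjusted p under 0.05 was reached by 5 of the 31, against 21.8% of all genes. KO and WT values did not overlap for 4 of the 31, against 19.2% of all genes. Impact, Kcnq1ot1 and Zrsr1 were higher in KO, against 9.37%, and Commd1 was lower, against 9.83%. The summed level of the 21 paternally expressed genes was 2097 ± 55.1 normalised counts in KO and 2152 ± 107 in WT. That of the 15 maternally expressed genes was 6238 ± 1060 in KO and 5907 ± 384 in WT. The KO 2 sum of 7457 was the highest and included 3758 from Gnas.

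**Figure D2:**
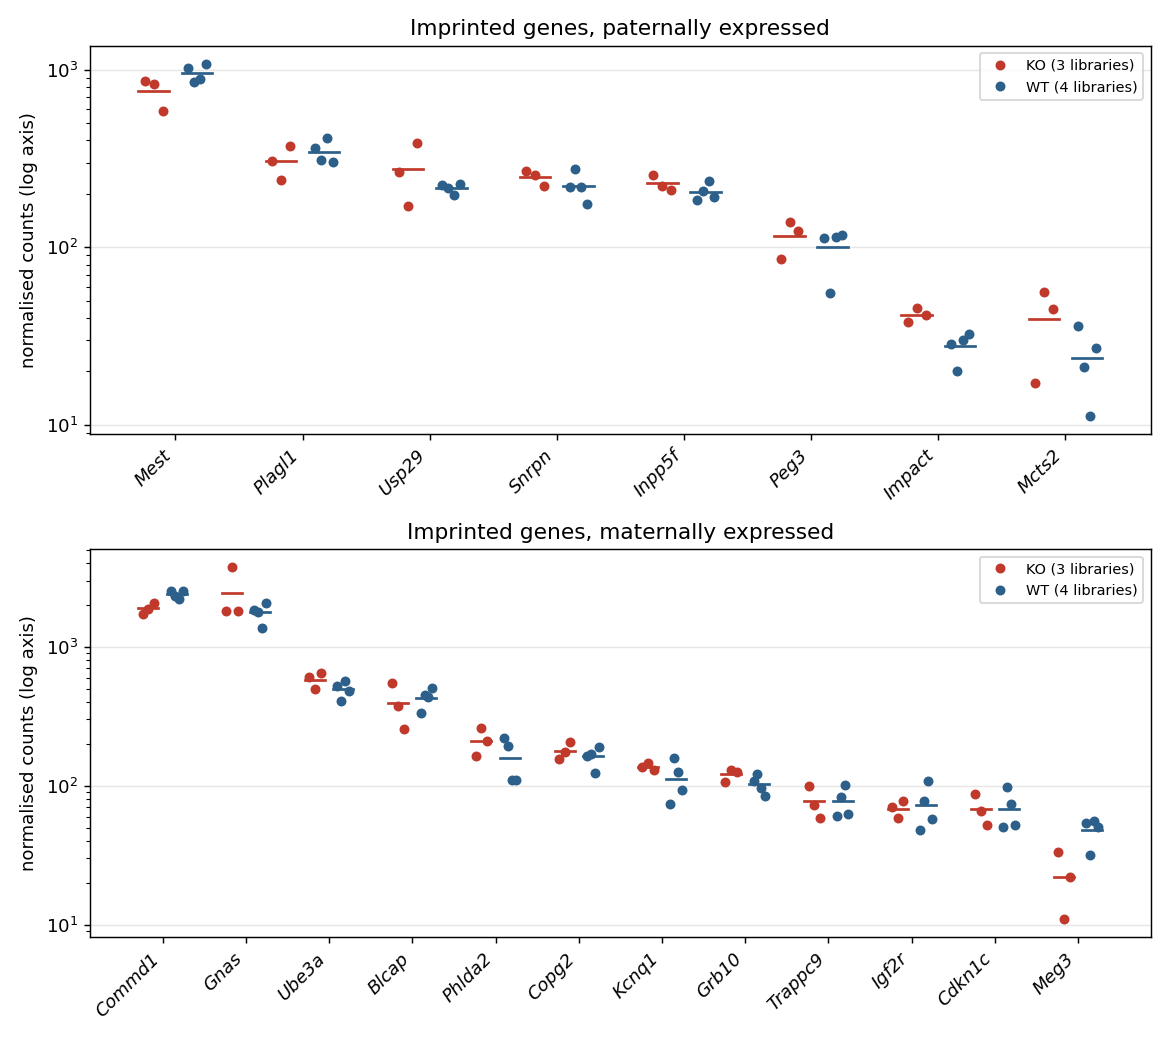
Normalised counts (log axis) of the 20 imprinted genes with a mean of at least 20, 1 point per library, with KO (red) left of WT (blue) and bars at the group means. The groups overlap for 18 of them, Commd1 is lower in KO without overlap, and Impact is higher in KO without overlap.

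Meg3, a long noncoding RNA expressed from the maternal allele of the Dlk1 cluster (ENSMUSG00000021268.17, GENCODE M21, GRCm38 chromosome 12, 109541001 to 109571726, plus strand), had 33.6, 10.9 and 21.9 normalised counts in KO 1 to KO 3, against 54.3, 32.0, 56.1 and 50.9 in WT 1 to WT 4. KO 2 and KO 3 were the lowest of all libraries, and KO 1 lay just above WT 2, so the groups overlapped. The means were 22.1 ± 11.4 in KO and 48.3 ± 11.1 in WT, and the log2 fold change was -1.19 (95% interval -1.91 to -0.47, SE 0.35, limma adjusted p = 0.0418). Its adjusted p rose above 0.05 in the limma fit without KO 2 (log2 fold change -0.78, adjusted p = 0.202), KO 3 (adjusted p = 0.0796), WT 1 (0.102), WT 3 (0.121) or WT 4 (0.094), and in edgeR (0.0626). Without both KO 2 and KO 3, the libraries with the highest granulosa marker sums, it was -0.48 (limma adjusted p = 0.704), in a fit that called 0.543% of all genes. With each library's mean log2 of the granulosa markers as a covariate it was -0.67 (limma adjusted p = 0.898), in a fit that called 0.0104% of all genes. This mean was 3.97, 5.08 and 4.92 in KO and 3.92, 3.07, 3.55 and 3.34 in WT. Every KO library thus lay above every WT library, so no fit with this covariate can tell it apart from genotype. In the deposited values the part of granulosa RNA in the Meg3 result was not tested. Dlk1, a Notch-related membrane protein expressed from the paternal allele of the cluster, had 0, 1.82 and 2.19 in KO and 0 in every WT library, below the level tested. Rian, a noncoding RNA of the same cluster, had 7.27, 0.909 and 1.09 in KO and 3.81, 0, 2.80 and 2.17 in WT. Meg3 shares 1228 exon bases, 6.79% of its exon length, with the annotated gene Gm26906 on the other strand.

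Of the growth regulators among the maternally expressed genes, none was called at adjusted p 0.05 by limma. Igf2r had 70.0, 58.2 and 77.7 normalised counts in KO and 47.7, 77.8, 108 and 57.4 in WT, with a log2 fold change of -0.03 (95% interval -0.58 to 0.52). Grb10, an adaptor that restrains insulin and growth factor receptors, had 107, 130 and 125 in KO and 108, 121, 96.3 and 84.5 in WT (log2 fold change 0.24, interval -0.18 to 0.66). The groups of both genes overlapped. Cdkn1c, an inhibitor of cyclin-dependent kinases, had 87.2, 65.5 and 52.5 in KO and 50.5, 98.0, 73.8 and 52.0 in WT (0.02, interval -0.53 to 0.57). Phlda2, which limits placental growth, had 164, 262 and 209 in KO and 222, 194, 110 and 109 in WT (0.46, interval -0.07 to 0.99). The groups of both genes overlapped. Kcnq1, a potassium channel subunit in the same cluster as Cdkn1c and Phlda2, had 136, 145 and 129 in KO and 73.4, 159, 125 and 93.1 in WT (0.34, interval -0.14 to 0.82).

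Gnas had 1801, 3758 and 1820 normalised counts in KO, against 1856, 1787, 1366 and 2079 in WT. KO 2 stood above all other libraries, while KO 1 and KO 3 lay within the WT range. The log2 fold change was 0.40 (interval -0.21 to 1.01, limma adjusted p = 0.445), and without KO 2 it was 0.05. The count covers all Gnas products, and 17.1% of its 75-base stretches also occur in other annotated genes, most often in the overlapping Gm20721. Larger shares were found for Igf2 (60.7%), Ube3a (23.0%), Snrpn (22.6%), Cdkn1c (22.1%) and Mest (20.2%).

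Commd1 had 1720, 1887 and 2082 normalised counts in KO, against 2509, 2325, 2203 and 2513 in WT. All KO libraries lay below all WT libraries. The means were 1896 ± 181 in KO and 2388 ± 151 in WT, with a log2 fold change of -0.33 (SE 0.12, interval -0.59 to -0.08, limma adjusted p = 0.103), and it stayed negative in each alternative run. Zrsr1, a retrogene of a splicing factor subunit expressed from the paternal allele, shares 412 annotated exon bases with Commd1 on the other strand. It had 5.45, 13.6 and 4.38 in KO and 1.91, 3.20, 3.74 and 2.17 in WT, without overlap and with the opposite sign (1.12, interval -0.02 to 2.25). In the deposited values Zrsr1 starts 1210 bases after its annotated start, so the part counted may not hold the shared bases. The kit marks no strand, so reads in any shared bases that were counted cannot be told apart.

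The other maternally expressed genes with a mean of at least 20 had overlapping groups. Ube3a, a ubiquitin ligase, had 602, 495 and 648 normalised counts in KO and 526, 408, 572 and 478 in WT (log2 fold change 0.23, interval -0.09 to 0.55). Copg2, a coat protein subunit of Golgi vesicles whose gene overlaps the end of Mest, had 155, 175 and 208 in KO and 165, 170, 123 and 192 in WT (0.15, interval -0.25 to 0.55). Blcap, a small conserved protein whose intron holds the imprinted Nnat, had 548, 377 and 255 in KO and 335, 452, 434 and 507 in WT (-0.19, interval -0.65 to 0.28). KO 1 was its highest library and KO 3 its lowest. Trappc9, a subunit of a vesicle tethering complex, had 99.9, 72.7 and 59.1 in KO and 61.0, 83.1, 102 and 62.8 in WT, with an interval of -0.51 to 0.51. Peg13, a paternally expressed noncoding RNA inside Trappc9, had 0.908, 0.909 and 2.19 in KO and 0 in every WT library.

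Of the paternally expressed genes, Mest (GENCODE M21, GRCm38 chromosome 6, 30723547 to 30748465, plus strand) was the most abundant, with 858, 829 and 585 normalised counts in KO, against 1021, 854, 887 and 1083 in WT. KO 1 lay just above WT 2 and the other KO libraries below all WT libraries. The means were 758 ± 150 in KO and 961 ± 109 in WT, and the log2 fold change of -0.36 (SE 0.15, interval -0.67 to -0.04) did not pass the threshold (limma adjusted p = 0.168). Mest shares 912 exon bases, 23.1% of its exon length, with Copg2 on the other strand.

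Plagl1, a zinc finger transcription factor that restrains growth, had 305, 238 and 372 normalised counts in KO and 360, 310, 410 and 301 in WT (log2 fold change -0.19, interval -0.55 to 0.17). Snrpn, a core splicing protein, had 268, 255 and 222 in KO and 218, 277, 218 and 175 in WT (0.18, interval -0.19 to 0.54). Both pairs of groups overlapped, and the promoters of both genes are shown above. Inpp5f, a phosphoinositide phosphatase, had 255, 223 and 211 in KO and 185, 209, 237 and 192 in WT (0.16, interval -0.19 to 0.51).

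Peg3, a zinc finger protein linked to maternal behaviour, had 85.4, 138 and 124 normalised counts in KO and 112, 55.4, 115 and 117 in WT (log2 fold change 0.24, interval -0.30 to 0.79). WT 2 stood far below the other WT libraries, and without it the log2 fold change was -0.02. Usp29, a deubiquitinase that starts beside Peg3 on the other strand, had 265, 172 and 387 in KO and 225, 216, 196 and 229 in WT (0.27, interval -0.18 to 0.71). KO 2 was its lowest library and KO 3 its highest, and without KO 3 the log2 fold change was -0.02.

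Impact, a regulator of the amino acid stress kinase GCN2, had 38.2, 45.5 and 41.6 normalised counts in KO, against 28.6, 20.2, 29.9 and 32.5 in WT. All KO libraries lay above all WT libraries. The means were 41.7 ± 3.65 in KO and 27.8 ± 5.30 in WT, with a log2 fold change of 0.59 (SE 0.29, interval -0.01 to 1.18, limma adjusted p = 0.238). Mcts2, a retrogene of a translation factor that lies in an intron of H13, had 17.3, 56.4 and 44.9 in KO and 36.2, 21.3, 11.2 and 27.1 in WT (0.65, interval -0.23 to 1.54). KO 2 and KO 3 were its highest libraries and KO 1 its next to lowest. Its log2 fold change was 0.32 without KO 2, 0.35 without WT 3 and 1.15 without KO 1 (limma adjusted p 0.0775 to 0.765 without any 1 library), and -0.34 without both KO 2 and KO 3. Its host H13, a signal peptide peptidase, had 1543, 1296 and 822 in KO and 1693, 1840, 1681 and 1725 in WT, all KO libraries being below all WT libraries (-0.55, SE 0.17, limma adjusted p = 0.0531).

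**Figure D3:**
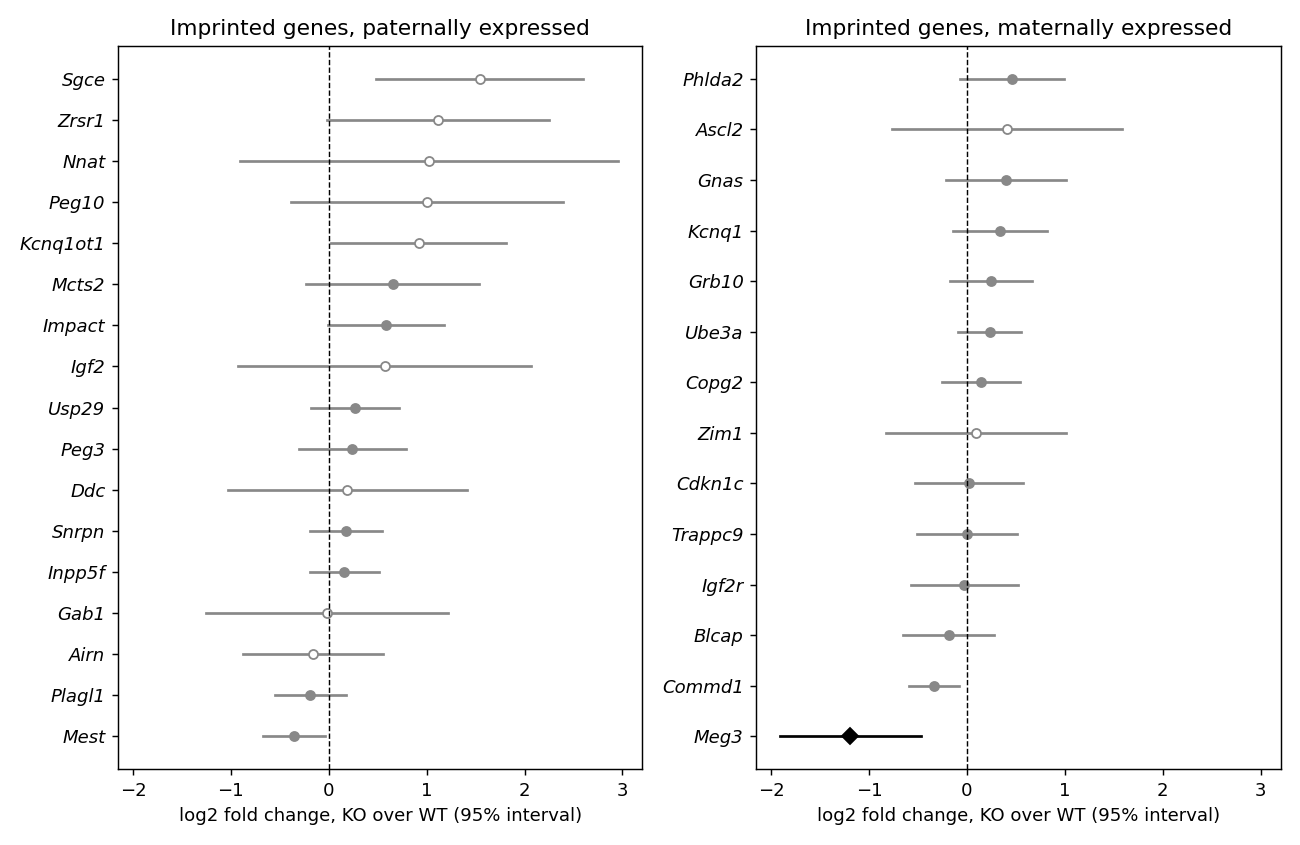
Log2 fold change of KO over WT with its 95% interval (x axis) for the 17 paternally (left) and 14 maternally expressed genes tested (right); the black diamond is the called gene, filled points have a mean of at least 20 normalised counts and open points less. The interval of Meg3 runs from -1.91 to -0.47 and most others cross 0.

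Low-abundance genes made up most of the rest. Of the 16 with a mean below 20, 13 were paternally expressed, and 11 were tested. Sgce, the membrane protein epsilon-sarcoglycan, had 9.99, 18.2 and 30.6 normalised counts in KO, against 10.5, 2.13, 4.67 and 7.58 in WT. KO 2 and KO 3 were the highest, and KO 1 lay below WT 1. The log2 fold change was 1.54 (SE 0.51, interval 0.49 to 2.60, limma adjusted p = 0.0725). It was called without KO 1 (1.93, limma adjusted p = 0.0339), and its log2 fold change was -0.02 with the granulosa covariate.

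Kcnq1ot1, the long antisense RNA that silences the Kcnq1 cluster in cis, had 13.6, 12.7 and 19.7 normalised counts in KO, against 10.5, 5.33, 10.3 and 5.42 in WT. The groups did not overlap, and the log2 fold change was 0.92 (SE 0.43, interval 0.02 to 1.81, limma adjusted p = 0.218). Airn had 17.3, 13.6 and 24.1 in KO and 21.9, 16.0, 21.5 and 21.7 in WT, with overlapping groups (-0.16, interval -0.88 to 0.55). Peg10, a retrotransposon-derived gene that neighbours Sgce, had 2.73, 6.36 and 6.56 in KO and 0, 6.39, 0.935 and 4.33 in WT. Nnat, a membrane proteolipid, had 0, 6.36 and 12.0 in KO and 5.72, 0, 2.80 and 0 in WT. Ddc, Gab1, Zim1 and Ascl2 lay between 1.07 and 23.0 in every library.

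Igf2, the fetal growth factor cleared by Igf2r, had 0, 3.64 and 1.09 normalised counts in KO and 0, 0, 0 and 3.25 in WT. The untested genes were no higher than 6.36 in any library. They were Dlk1, Nap1l5, Slc38a4, Sfmbt2 and Smoc1. Nap1l5 is a nucleosome assembly protein relative, Slc38a4 an amino acid transporter, Sfmbt2 a Polycomb-related protein and Smoc1 a secreted calcium-binding protein. The imprinting of Slc38a4, Sfmbt2 and Smoc1 is taken not to rest on oocyte DNA methylation. Nap1l5 had 0, 2.73 and 2.19 in KO and 0 in WT, and Slc38a4 was 0 in KO with at most 2.13 in WT. These values are a few reads each.

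The sign of the fold changes was positive for 22 of the 31 tested genes, with a median of 0.23 on the log2 scale, against 9451 of 19227 and a median of -0.01 over all genes. The paternally expressed genes were above 0 in 13 of 17 (median 0.27) and the maternally expressed in 9 of 14 (median 0.12). In a list, chosen by hand, of genes with a control region methylated in oocytes, 13 of 16 tested were above 0 (median 0.33). Of these 16, 0 were called by limma and 3 had an unadjusted limma p under 0.05, against 21.8% of all genes. The list leaves out genes that hold or overlap another imprinted gene: Igf2r (-0.03), Commd1 (-0.33), Blcap (-0.19), Trappc9 (-0.00056), Kcnq1 (0.34) and Copg2 (0.15). Among the 20 genes with a mean of at least 20, 13 were above 0 (median 0.17). With KO 2 and KO 3 left out, 9 of 15 paternally expressed genes were above 0 (median 0.29) and 10 of 14 maternally expressed (median 0.10). With the granulosa covariate, 8 of 17 paternally expressed genes were above 0 (median -0.02) and 9 of 14 maternally expressed (median 0.12). The median of the paternally expressed genes thus differed in sign between these fits. Since the covariate was higher in every KO library than in any WT library, its fit cannot tell it apart from genotype.

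The libraries with the highest granulosa marker sums were high for some genes and low for others. KO 2 and KO 3 held the highest values of the 7 libraries for Dlk1, Grb10, Impact, Mcts2, Nap1l5, Nnat, Peg3, Sgce and Smoc1. These were 9 of 36 genes, and 6 of the 31 tested, against 12.4% of all genes tested. They held the lowest values for Meg3 and Mest, 2 of 31, against 9.92% of all genes tested. The part of granulosa RNA in these values was not tested.

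**Figure D4:**
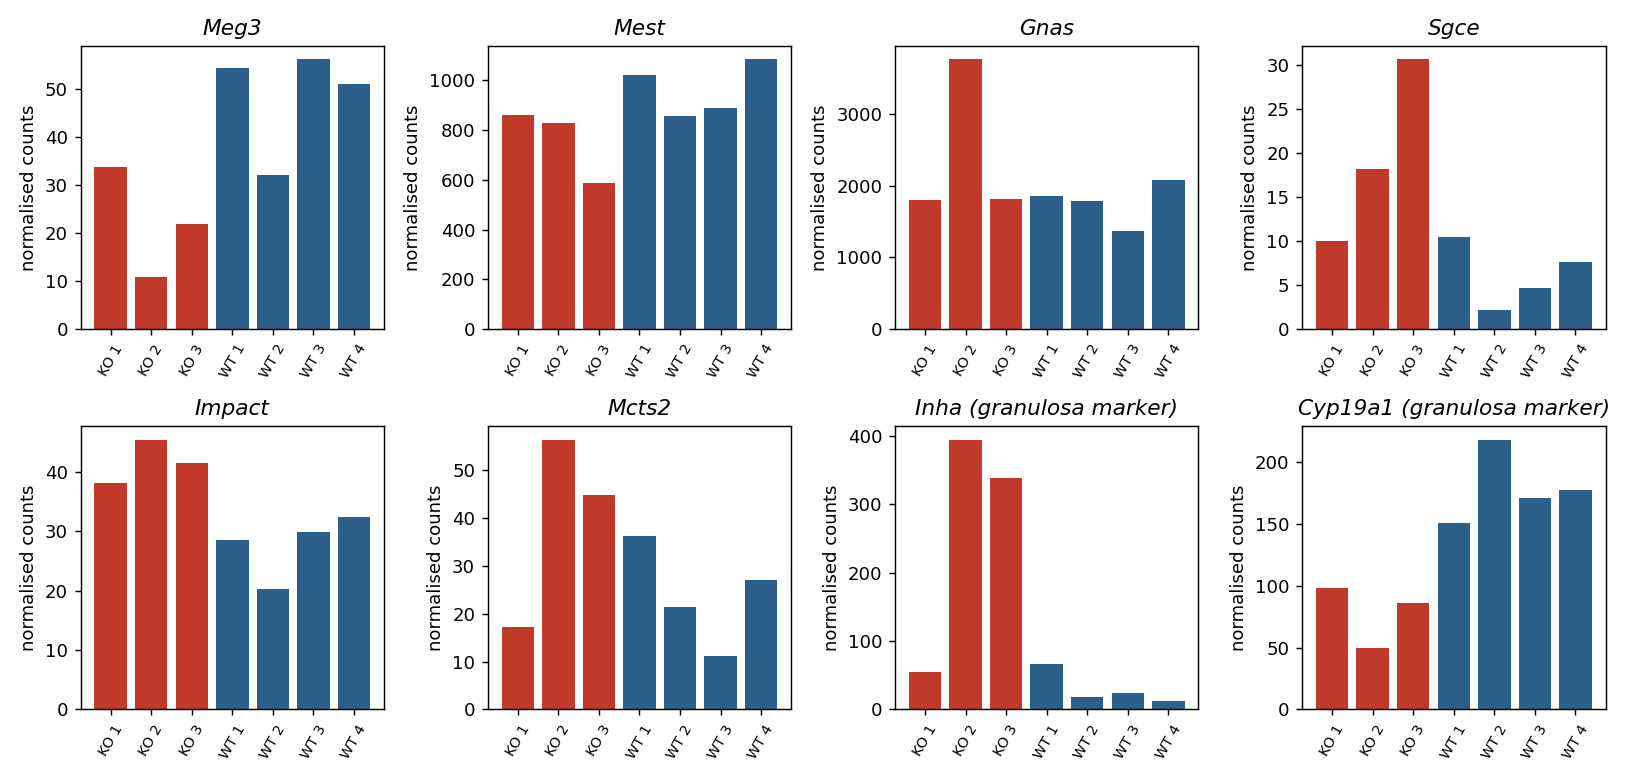
Normalised counts in each library (KO red, WT blue) for 6 imprinted genes and for the granulosa markers Inha and Cyp19a1. Inha is high in KO 2 and KO 3 at 395 and 338, while Cyp19a1 is lower in all KO libraries than in any WT library; Sgce and Mcts2 are highest and Meg3 lowest in KO 2 and KO 3, while Gnas is high in KO 2 only and Impact is higher in all 3 KO libraries than in any WT library.

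Most of the enzymes and factors that set or keep imprints did not pass the test. Of 40 listed, 39 were tested, 1 was called higher in KO and 2 lower, with a median log2 fold change of -0.01. That is 3 of 39, a share near the 6.71% of all genes called. Dnmt3l had 549, 287 and 307 normalised counts in KO, against 687, 571, 598 and 763 in WT. All KO libraries lay below all WT libraries, and the log2 fold change was -0.83 (SE 0.20, limma adjusted p = 0.0173). The call was lost in the limma fit without KO 2, KO 3 or WT 4 (adjusted p up to 0.0929). Kdm1b, the demethylase that clears histone H3 lysine 4 methylation so that oocyte DNA methylation can follow, had 1623, 2418 and 2302 in KO and 1367, 1132, 1262 and 1540 in WT. All its KO libraries lay above all WT libraries (0.66, SE 0.15, limma adjusted p = 0.0108), and the call was lost without KO 2 (adjusted p = 0.0636). Khdc3, a subunit of the oocyte's subcortical maternal complex, had 8798, 9818 and 7052 in KO and 11275, 13437, 10588 and 12456 in WT (-0.49, SE 0.13, limma adjusted p = 0.0241), and its call was lost without KO 3, WT 2 or WT 4 (adjusted p up to 0.100). With KO 2 and KO 3 left out none of these 3 was called (limma adjusted p 0.692 for Dnmt3l, 0.564 for Kdm1b and 0.249 for Khdc3), nor with the granulosa covariate (limma adjusted p 0.916, 0.929 and 0.863 in the same order).

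Dnmt3a, Zfp57 and Setd2 were among the 36 that did not pass the test. Dnmt3a had 712, 832 and 678 normalised counts in KO and 649, 510, 590 and 709 in WT (log2 fold change 0.27, limma adjusted p = 0.289). Zfp57, which binds the motif shown above, had 6483, 6456 and 6551 in KO and 6679, 6878, 6381 and 6285 in WT (-0.01, SE 0.11). Setd2, the methyltransferase of histone H3 lysine 36, had 569, 547 and 893 in KO and 518, 568, 551 and 466 in WT (0.32, limma adjusted p = 0.276), with KO 3 above all others.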

How the data were processed

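RNA of 7 pooled-oocyte libraries, 3 KO and 4 WT, grouped by their titles, was compared. The authors deposited a table of normalised signal, with 1 value for each gene in each library. The submitters' processing notes name GRCm38 (mm10) as the build, and STAR, DESeq2, DESeq, cutadapt and FastQC as tools. The counter is not named in the sources used here. Per the labels' protocols, Nextera XT libraries, which do not mark strand, were read as 75-base pairs. The deposited signal values were gene counts divided by 1 factor per library: 100% of values of up to 1000 reads were whole within 0.05 of a read after division by the step. Shared bases of overlapping genes could go to either gene or to none.

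limma (3.58.1, R 4.3.3) with trend and robust variance was fitted to log2(value + 1) over the 19227 genes that reached 1 in at least 3 libraries, and p-values were adjusted over all of them by Benjamini-Hochberg; "called" means an adjusted p under 0.05. Fold changes are KO over WT and understate the change of low genes. edgeR (4.0.16, quasi-likelihood) and DESeq2 (1.42.0) on recovered reads, other scalings, pseudocounts and filters, and fits without each library were alternatives. The limma fit was tested on simulated data. Lengths, identifiers and overlaps come from GENCODE M21, to which 24724 rows were matched by name and position and 1295 were not. The genes and lists were chosen with earlier results of these data known. Values are given in each library for genes that were called or averaged at least 20 normalised counts, and Sgce, Zrsr1, Kcnq1ot1 and other genes below that were named for their p, their overlap with another gene or their place in a cluster.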

Additional observations from a re-analysis of the deposited data

Results flagged for a closer look

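Peg3 in WT 2 had 55.4 normalised counts, while the other WT libraries had 112 to 117. The gap to the nearest library was 0.927 of the group's range, above Dixon's 95% critical value for 4 libraries. It was the only such library among 23 imprinted genes checked in WT, and chance flags about 1 group in 20. The 3 KO libraries are too few for this check.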

How the results depend on the processing

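Over all genes, leaving out 1 library gave 594 to 1767 calls, against 1291, leaving out both KO 2 and KO 3 gave 98, and the granulosa marker mean as a covariate gave 2; with KO 1 alone the fit assumes that it varies like the WT libraries. Of the imprinted genes, 0 to 1 were called higher (0 with all libraries; 1, Sgce, without KO 1 and with no filter on low values), and the same range held for the paternally expressed. Called lower, and among the maternally expressed, were 0 to 1 (0 with edgeR, without KO 2, KO 3, WT 1, WT 3 or WT 4, without both KO 2 and KO 3, and with the covariate). Replicate numbers did not pair the libraries (correlations of same-numbered deviations -0.12, 0.03 and 0.02). With the replicate number as a block 1022 genes were called and Meg3 remained (limma adjusted p = 0.0426). Khdc3 (0.0844), Th (0.0970), Phactr2 (0.102) and Ampd3 (0.0857) were no longer called, and Cdkn1c turned to -0.0944. WT 4 has no KO library of its number, so the block fit did not use it to compare KO with WT. Its log2 fold changes equalled those without WT 4, with -1.15 for Meg3 in both. The granulosa sum was 418 to 1131 higher in KO without 1 library (720 with all), and by mean log2 1.18 higher. Of 390 comparisons of 23 genes with an alternative, 349 kept direction and call, 8 lost a call (Meg3), 2 gained one (Sgce) and 31, of 11 genes, changed sign. Without KO 2 and KO 3 the log2 fold change was -0.16 for Peg3, -0.34 for Mcts2, 0.0123 for Igf2r, -0.0476 for Copg2, 0.36 for Blcap and 0.40 for Trappc9. With the covariate, which separated KO from WT and so cannot be told apart from genotype, it was -0.64 for Peg3, -0.70 for Mcts2 and 0.28 for Igf2r. In the same fit it was -0.0450 for Gnas, 0.60 for Blcap, -0.0784 for Phlda2, 0.54 for Trappc9 and -0.0196 for Sgce. Trappc9 was 0.0066 in edgeR, 0.0036 in DESeq2 and 0.0025 with TMM scaling. Without 1 library the ranges crossing 0 were -0.0171 to 0.445 for Peg3, -0.0175 to 0.566 for Usp29, -0.20 to 0.19 for Igf2r, -0.46 to 0.0905 for Blcap, -0.17 to 0.21 for Cdkn1c and -0.20 to 0.17 for Trappc9. The cause of these changes was not tested.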

Other observations

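Of 52 other known imprinted genes, 39 were tested, 2 were called higher in KO and 2 lower by limma, with a median log2 fold change of 0.15. The share called over all genes was 6.71%, 3.09% higher and 3.63% lower. Th, the tyrosine hydroxylase of catecholamine synthesis, had 1052, 1094 and 1137 normalised counts in KO, against 1490, 1543, 1458 and 1522 in WT (-0.46, SE 0.12, limma adjusted p = 0.0267). Ppp1r9a, a neuronal actin-binding scaffold, had 12.7, 10.9 and 35 in KO and 49.6, 39.4, 65.4 and 46.6 in WT (-1.48, SE 0.35, limma adjusted p = 0.0161). The KO libraries of both lay below all WT libraries. Ampd3, an AMP deaminase, had 222, 175 and 143 in KO and 79.1, 125, 122 and 104 in WT (0.74, SE 0.21, limma adjusted p = 0.0389). Phactr2, a regulator of phosphatase and actin, had 3.63, 10.9 and 25.2 in KO and 1.91, 2.13, 2.80 and 0 in WT (2.22, SE 0.64, limma adjusted p = 0.0416). The KO libraries of both lay above all WT libraries.

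Each of these calls was lost when some single library was left out. That held without KO 2 or WT 3 for Ppp1r9a (limma adjusted p up to 0.0767), without KO 2 or any WT library for Th (up to 0.0795), without KO 1, KO 2 or any WT library for Ampd3 (up to 0.129) and without any one library other than KO 1 for Phactr2 (up to 0.215). With KO 2 and KO 3 left out, Th (limma adjusted p = 0.172), Ampd3 (0.103) and Phactr2 (0.777) were not called and Ppp1r9a was; with the granulosa covariate none of the 4 was called. The fold changes kept their sign in these fits.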
